A study of Mus musculus with 10 samples.

Results

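The transcripts described here belong to 9 mouse genes that act in germ cell RNA control and in the commitment of germ cells to meiosis: *Dazl*, *Ddx4*, *Ybx2*, *Cpeb1*, *Meioc*, *Ythdc2*, *Rbm46*, *Mybl1* and *Zfp541*. They were picked by name for their known functions, out of the 55536 genes in the count table, and all 9 were among the 20317 genes with enough reads to be tested. Bulk RNA was sequenced from 10 libraries of female germ cells at E14.5 (embryonic days), the age at which ovarian germ cells leave mitosis and enter meiotic prophase.

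The libraries comprised 4 Taf4b-deficient, 4 Taf4b-heterozygous and 2 Taf4b-wildtype samples. *Taf4b* encodes a gonad-enriched subunit of the general transcription factor TFIID, and the design asks how germ cells differ when it is missing. By their labels, deficient animals are infertile, heterozygous and wildtype animals are fertile, and the strain is C57BL/6. All groups came from matings between *Taf4b* heterozygotes that were also homozygous for an Oct4-EGFP transgene (B6;129S4-Pou5f1tm2Jae/J), so every library carries that reporter. Live cells, which exclude propidium iodide, were sorted on GFP signal, and the reporter is driven by a pluripotency gene that germ cells still transcribe at this age. The part of *Taf4b* that the mutation removes was not given in the labels. Each library has 1 of 3 litter dates, 29 January, 1 March or 7 March 2019. The labels do not say that each library is a separate animal, so p-values measure only the spread between these samples, which may be technical. In bulk RNA, fewer cells of a type or stage and less RNA per cell cannot be told apart.

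As background, DAZL and DDX4 are cytoplasmic RNA-binding proteins that mark germ cell identity: DAZL promotes translation of its targets through sites near the end of the message, and DDX4 is an RNA helicase of germ granules. YBX2 (MSY2) coats and stores maternal messages, and CPEB1 binds a U-rich element and controls tail length and translation. MEIOC holds the helicase YTHDC2 and the RNA-binding protein RBM46 in a complex that lowers mitotic messages, which lets germ cells stay in meiosis once they have entered it. MYBL1 (A-MYB) and ZFP541, which works with KCTD19, are transcription regulators known best from meiosis in the mouse testis.

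The targeted gene was checked first. *Taf4b* CPM, its read count scaled to the size of the library, lay between 56.1 and 64.9 in the deficient libraries, against 144 to 234 in the heterozygous and 152 and 207 in the wildtype libraries. No deficient library reached the level of any fertile library, and some *Taf4b* reads remained in every deficient library. The log2 change was -1.71 against heterozygous libraries (SE 0.17, adjusted p = 0.0118, edgeR quasi-likelihood test). Against the 2 wildtype libraries it was -1.56 (SE 0.19, adjusted p = 0.113, same test), which did not reach an adjusted p under 0.05. Library totals ran from 28949924 to 44166320 reads. The germ cell markers *Pou5f1* and *Kit*, which are not among the 9 genes, were present in every library, at 83.4 to 261 TPM and 150 to 355 TPM. Summed CPM of 14 macrophage and blood markers was 19.0 to 33.1 in deficient, 7.89 to 17.8 in heterozygous and 17.4 to 20.9 in wildtype libraries, and none of these markers was at 0 in every library. The 12 pregranulosa markers summed to 35.1 to 50.8, 27.8 to 53.9 and 22.2 to 57.3 CPM in deficient, heterozygous and wildtype libraries.

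The promoters of 4 of the genes are shown for the contrast the values below describe. *Dazl* and *Cpeb1* varied least between libraries, while *Meioc* and *Rbm46* rose in libraries further into meiosis. The rise of *Rbm46* was much smaller than that of *Meioc*. It no longer passed the test when deficient replicate 3 or heterozygous replicate 1 was left out. Each line is the stretch of 160 bases nearest the start site that lies outside annotated exons, 5′ to 3′ on the gene's strand, from RefSeq on GRCm38.p6. The stretches are chr17:50293637-50293796 (- strand) for *Dazl*, chr7:81454759-81454918 (- strand) for *Cpeb1*, chr11:102665425-102665584 (+ strand) for *Meioc* and chr3:82876484-82876643 (- strand) for *Rbm46*. By GENCODE M21 the *Cpeb1* and *Meioc* stretches lie inside the gene, between exons, because other annotated transcripts start further upstream. The *Dazl* and *Rbm46* stretches lie just outside the GENCODE gene. Capitals mark matches on either strand to any of 5 short motifs named below the lines, and matches that touch or overlap share 1 run of capitals.
Dazl: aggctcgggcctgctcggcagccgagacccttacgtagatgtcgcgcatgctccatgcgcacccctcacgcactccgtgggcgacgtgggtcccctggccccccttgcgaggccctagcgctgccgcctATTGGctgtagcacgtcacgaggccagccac
Cpeb1: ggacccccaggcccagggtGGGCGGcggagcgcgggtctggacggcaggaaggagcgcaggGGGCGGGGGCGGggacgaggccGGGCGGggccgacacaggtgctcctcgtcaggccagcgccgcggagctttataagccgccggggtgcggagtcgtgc
Meioc: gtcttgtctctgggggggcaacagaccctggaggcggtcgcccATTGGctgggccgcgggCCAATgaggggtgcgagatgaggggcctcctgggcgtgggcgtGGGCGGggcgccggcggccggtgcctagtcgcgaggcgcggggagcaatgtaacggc
Rbm46: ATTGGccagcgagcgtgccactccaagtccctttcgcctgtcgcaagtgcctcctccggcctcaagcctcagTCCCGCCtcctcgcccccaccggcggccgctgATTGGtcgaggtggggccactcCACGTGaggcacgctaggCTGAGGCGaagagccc

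These motifs are the NF-Y box CCAAT, the Sp1-type GC box GGGCGG, the E-box CACGTG, the E2F-type GGCGGGA, and CNCCTCAG, a motif linked to STRA8. Among all 32851 RefSeq promoter windows of 300 bases, CCAAT was found in 37.4%, GGGCGG in 35.7%, CACGTG in 7.15%, GGCGGGA in 11.3% and CNCCTCAG in 7.94%. AACNG, the core letters of MYB sites, was found in 80.3% of windows and is not capitalised for that reason. The printed *Dazl* stretch held 1 CCAAT match, and the printed *Cpeb1* stretch held 4 GGGCGG matches. The *Meioc* stretch held 2 CCAAT matches and 1 GGGCGG match. The *Rbm46* stretch held 2 CCAAT matches and 1 match each to the E-box, the E2F-type motif and the STRA8-linked motif. Outside the printed stretches, the window of 300 bases also held 1 match to the STRA8-linked motif for *Dazl* and 1 E-box match for *Cpeb1*. These motifs were thus found in windows of both even and rising genes. In the whole window of 300 bases, CpG counts were 28 for *Dazl*, 33 for *Cpeb1*, 28 for *Meioc* and 25 for *Rbm46*, against a median of 7 over all windows. These 4 windows all exceeded that median. A match describes letters and shows neither binding nor a cause. RefSeq promoter windows were read for 7 of the 9 genes. *Mybl1* had no window, and *Ythdc2* was not looked up, so both are named only. For *Zfp541* the RefSeq start (chr7, position 16071845) coincides with the first base of exon 3 of an 18-exon GENCODE M21 transcript, so the letters before it were not taken as a promoter.

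All 9 genes were detected in every library, at levels per length that differed widely between genes. Mean TPM (a level scaled by transcript length and library size by the authors) over the 10 libraries was 1689 for *Dazl*, which ranked 36 among the tested genes. The next was *Ddx4* with 582 TPM, followed by *Cpeb1* with 165, *Meioc* with 151 and *Rbm46* with 92.6 TPM. Lower levels were seen for *Ybx2* with 30.5, *Zfp541* with 22.7, *Ythdc2* with 19.7 and *Mybl1* with 5.90 TPM. The order was fixed in all 10 libraries for *Dazl* above *Ddx4*, *Ddx4* above *Cpeb1*, *Rbm46* above *Ybx2* and *Ythdc2* above *Mybl1*, whose ranges did not overlap. Other neighbours exchanged places. *Cpeb1* was above *Meioc* in 6 of 10 libraries, *Meioc* above *Rbm46* in 8, *Ybx2* above *Zfp541* in 7, and *Zfp541* above *Ythdc2* in 4. In deficient replicate 3 and heterozygous replicate 1, *Zfp541* was the lowest of the 9 genes and *Meioc* stood below *Rbm46*. In heterozygous replicates 2, 3 and 4, *Meioc* was the third highest and *Zfp541* was above both *Ybx2* and *Ythdc2*.

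**Figure D1:**
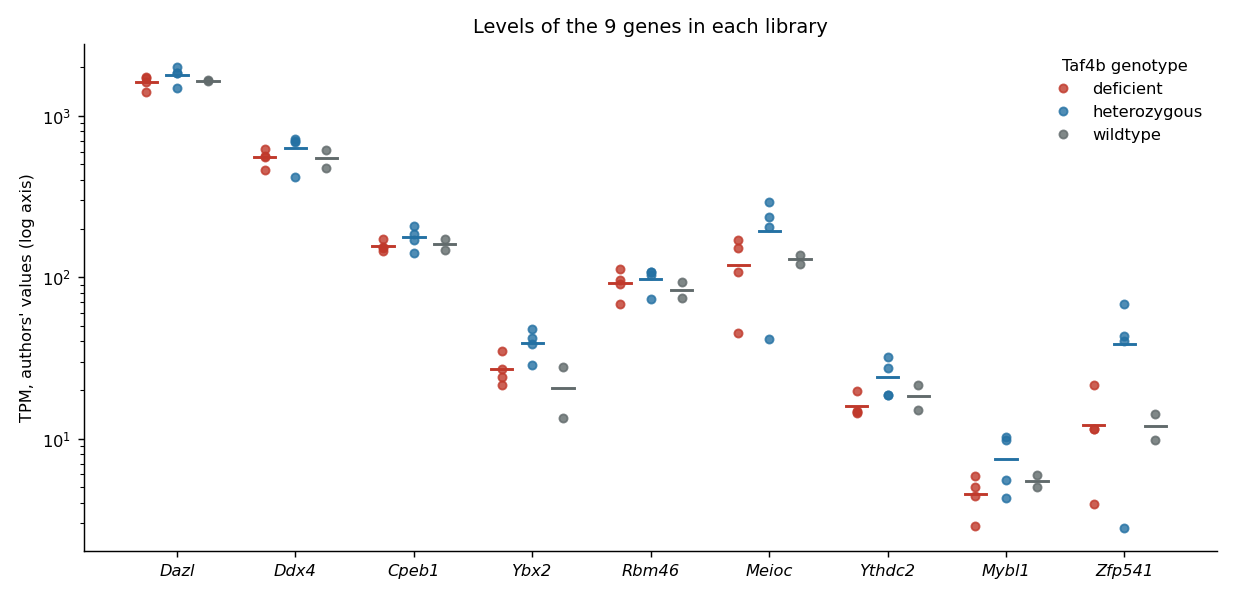
Level of each gene in each library, in TPM on a log axis, with 1 point per library, colours for the 3 genotypes and a bar at each group's mean. *Dazl* lies between 1407 and 2003 TPM in all 10 libraries, while *Zfp541* spans 2.80 to 68.1 TPM, with both its lowest and its highest value in heterozygous libraries.

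Of the identity genes, *Dazl* varied less between libraries than *Ddx4*. *Dazl* CPM was 2547, 2780, 2295 and 2550 (deficient replicates 1 to 4), 2284, 2526, 2711 and 2426 (heterozygous replicates 1 to 4) and 2625 and 2387 (wildtype replicates 1 and 2), and later lists of values keep this replicate order. The 3 groups overlapped, and the highest library stood 1.22-fold above the lowest. *Ddx4* CPM was 902, 1020, 780 and 865 (deficient), 696, 1085, 1008 and 1048 (heterozygous) and 806 and 946 (wildtype). Deficient replicate 3 and heterozygous replicate 1 were the lowest pair of libraries for both genes. The highest *Ddx4* library stood 1.56-fold above the lowest, and the groups overlapped.

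Of the storage and translation genes, *Cpeb1* was as even as *Dazl* and *Ybx2* was not. *Cpeb1* CPM was 265, 231, 233 and 226 (deficient), 219, 260, 240 and 280 (heterozygous) and 239 and 252 (wildtype). *Ybx2* CPM was 26.6, 33.0, 22.7 and 24.0 (deficient), 27.7, 47.9, 33.2 and 40.8 (heterozygous) and 13.6 and 29.8 (wildtype). Wildtype replicate 1 was the lowest library for *Ybx2*, the other wildtype library lay inside the range of both other groups, and all 3 groups overlapped.

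The 3 genes of the MEIOC complex did not share a pattern. *Meioc*, its scaffold, had CPM values of 420, 465, 135 and 280 (deficient), 124, 703, 493 and 582 (heterozygous) and 345 and 351 (wildtype). *Ythdc2*, the helicase, had CPM values of 73.4, 48.9, 54.5 and 48.7 (deficient), 62.0, 89.5, 49.3 and 97.1 (heterozygous) and 58.9 and 71.2 (wildtype). *Rbm46*, the RNA-binding partner, had CPM values of 114, 136, 85.9 and 103 (deficient), 87.2, 117, 115 and 119 (heterozygous) and 92.1 and 106 (wildtype). For *Meioc* and *Rbm46* deficient replicate 3 and heterozygous replicate 1 were the lowest libraries, whereas *Ythdc2* was lowest in deficient replicates 4 and 2 and heterozygous replicate 3. The TPM ratio of *Meioc* to *Ythdc2* ran from 3.04 to 11.8 in deficient, 2.22 to 10.99 in heterozygous and 6.38 to 7.99 in wildtype libraries. The ratio of *Meioc* to *Rbm46* ran from 0.659 to 1.58, 0.570 to 2.80 and 1.47 to 1.64 in deficient, heterozygous and wildtype libraries. Among deficient and among heterozygous libraries, these ratios thus spanned a wider range than the one separating the genotype means.

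Of the transcription regulators, *Mybl1* had the lowest mean TPM of the 9 genes and *Zfp541* varied most between libraries. *Mybl1* CPM was 16.4, 11.2, 14.2 and 7.87 (deficient), 13.9, 22.3, 8.17 and 23.3 (heterozygous) and 13.2 and 15.1 (wildtype). *Zfp541* CPM was 30.6, 55.3, 10.2 and 27.2 (deficient), 7.77, 167, 97.1 and 104 (heterozygous) and 28.0 and 34.5 (wildtype). The *Zfp541* values rest on 267 to 6409 reads a library. Heterozygous libraries held both its highest 3 values and its lowest, so the groups overlapped.

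The spread of each gene was set against that of all tested genes. The SD of log2 CPM over the 10 libraries was 0.10 for *Dazl*, at percentile 0.906 of the 20317 tested genes, and 0.11 for *Cpeb1*, at percentile 2.05. *Ddx4* with an SD of 0.21 and *Rbm46* with 0.21 stood at percentiles 16.9 and 18.1, below the median SD of 0.43. *Ythdc2* with an SD of 0.36, *Ybx2* with 0.50 and *Mybl1* with 0.52 were at percentiles 40.8, 58.8 and 61.2. *Meioc* with an SD of 0.83 was at percentile 87.3 and *Zfp541* with 1.42 at percentile 99.3. Low counts add spread, so the comparison was repeated among the 10881 genes with a mean of at least 5 CPM, where the median SD was 0.28. There *Dazl* was at percentile 1.69, *Cpeb1* at 3.83, *Meioc* at 95.9 and *Zfp541* at 99.6. Within genotypes the SD of *Zfp541* was 1.46 and that of *Dazl* 0.11, so the contrast lay among libraries of the same genotype.

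**Figure D2:**
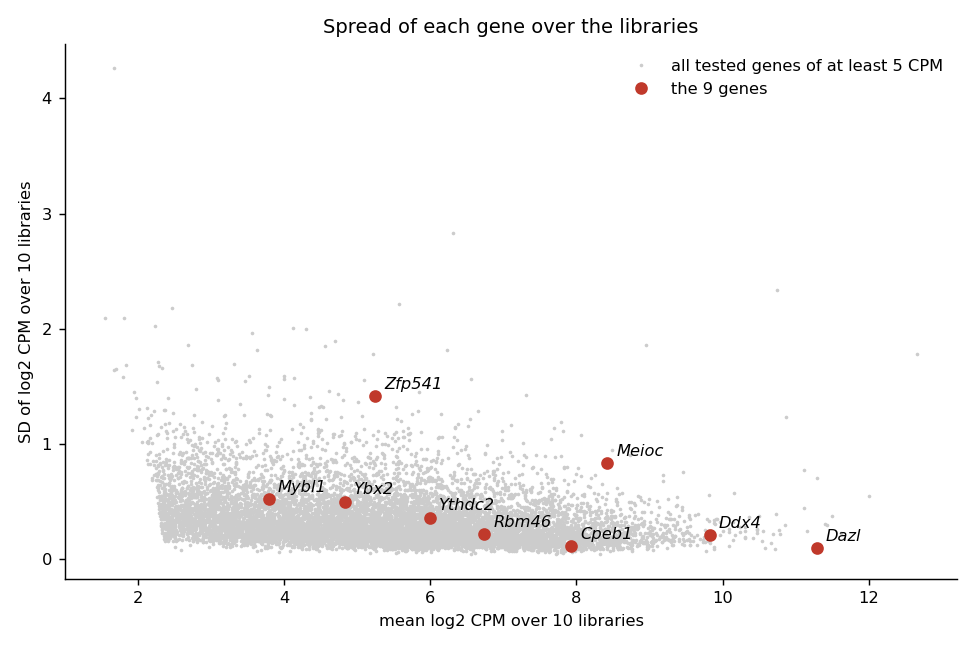
SD of log2 CPM over the 10 libraries against mean log2 CPM, for the 9 genes in red and for all tested genes with a mean of at least 5 CPM in grey. *Dazl* and *Cpeb1* lie at the lower edge of the cloud, with SDs of 0.10 and 0.11, and *Meioc* and *Zfp541* near its upper edge, with SDs of 0.83 and 1.42.

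None of the 9 genes was called (Benjamini-Hochberg adjusted p under 0.05, edgeR quasi-likelihood test) between genotypes. In deficient against heterozygous libraries 0 of 9 passed, beside 0.0148% of all tested genes, and 1 of 9 had an unadjusted p under 0.05, beside 11.9%. In deficient against wildtype libraries 0 of 9 passed, beside 0% of all tested genes, with 0 of 9 at an unadjusted p under 0.05, beside 3.66%. The targeted gene *Taf4b* did not pass in that comparison either, so the 0 of 9 there says little about the 9 genes. In deficient libraries against the mean of both fertile genotypes 0 of 9 passed, beside 0.00492%, with 0 of 9 at an unadjusted p under 0.05, beside 4.31%. In heterozygous against wildtype libraries 0 of 9 passed, beside 0.00492%, and 1 of 9 had an unadjusted p under 0.05, beside 8.3%. DESeq2 on the same counts also called 0 of 9 in each of these comparisons. For none of the 9 genes were the groups free of overlap in any of the 4 comparisons, while among all tested genes 5.97%, 12.6%, 1.39% and 15.8% had groups that did not overlap, in the same order.

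*Dazl*, *Cpeb1*, *Ddx4* and *Rbm46* gave the narrowest intervals of the 9 genes between deficient and heterozygous libraries. The log2 change of *Dazl* was 0.03, with a 95% interval of -0.20 to 0.26. The change of *Cpeb1* was -0.06, with an interval of -0.31 to 0.18, and that of *Rbm46* was 0.01, with an interval of -0.35 to 0.36. The signs of *Dazl*, *Cpeb1* and *Rbm46* turned under at least 1 other setting. *Ddx4* differed by -0.10, with an interval of -0.44 to 0.23, and by 0.06 once the stage index defined below was in the model. These intervals limit the size of any difference and do not show that the levels were equal.

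The wider intervals belonged to the genes that varied most. *Zfp541* averaged 30.8 ± 18.6 CPM in deficient libraries and 93.8 ± 65.4 CPM in heterozygous libraries (SD, n = 4 each), a log2 change of -1.61 (SE 0.70, unadjusted p = 0.0427, adjusted p = 0.409, edgeR quasi-likelihood test). It was lower in deficient libraries than in 3 of the 4 heterozygous libraries, and higher than in heterozygous replicate 1. Without heterozygous replicate 1 the change was -1.95 and passed the test (adjusted p = 0.0474). With the stage index in the model it was -0.25 (adjusted p = 0.573), and over all alternatives the adjusted p ran from 0.0474 to 0.805. *Meioc* averaged 325 ± 149 CPM in deficient libraries and 476 ± 249 CPM in heterozygous libraries (SD, n = 4 each), a log2 change of -0.55 with an interval of -1.59 to 0.48, which became 0.16 with the stage index in the model. *Ybx2*, *Ythdc2* and *Mybl1* had log2 changes of -0.49, -0.40 and -0.45, with intervals that include 0. Macrophage and blood markers summed higher in all 4 deficient than in all 4 heterozygous libraries, and their part in these differences was not tested. With litter date as a term *Zfp541* was at -1.64 and *Meioc* at -0.63 against heterozygous libraries.

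Against the mean of both fertile genotypes, *Zfp541* was at -0.81 and *Meioc* at -0.32 on the log2 scale in deficient libraries, with intervals of -2.25 to 0.62 and -1.30 to 0.65. Against wildtype libraries alone *Ybx2* was at 0.29 and *Ythdc2* at -0.21 in deficient libraries, with intervals of -0.41 to 0.99 and -0.81 to 0.39. *Zfp541* was at -0.02 and *Meioc* at -0.10 in that comparison, with intervals of -1.87 to 1.83 and -1.36 to 1.16, and both signs turned when single libraries were left out. Between heterozygous and wildtype libraries *Ybx2* was at 0.78 (SE 0.32, unadjusted p = 0.0339, adjusted p = 0.522, edgeR), where wildtype replicate 1 is the low sample. Without that library the *Ybx2* change was 0.33, and without wildtype replicate 2, which leaves the low one alone, it was 1.41. *Zfp541* was at 1.59 in heterozygous against wildtype libraries on the log2 scale, with an interval of -0.41 to 3.58. The authors' deposited table, whose contrast is not named, gives log2 fold changes of -1.21 for *Zfp541*, -0.53 for *Meioc*, -0.47 for *Mybl1* and 0.05 for *Dazl*, with an adjusted p of at least 0.808 for all 9 genes.

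How far each library had moved into meiosis was measured with a stage index, the mean log2 CPM of 37 recombination and chromosome axis genes minus the mean log2 CPM of 27 pluripotency genes. None of the 9 genes is in either list, and their choice was made with earlier results on stage in these libraries known. Its values were 0.90, 2.06, -1.11 and 0.42 (deficient), -1.27, 2.84, 2.33 and 2.37 (heterozygous) and 0.50 and 0.88 (wildtype). Heterozygous libraries thus held both the lowest and the highest values, and deficient replicate 3 and heterozygous replicate 1 stood apart from the other 8 at the low end. Summed CPM of the endothelial list was also highest in these, 376 and 383, against 66.6 to 224 in the other 8. Its main gene *Pecam1*, which is also made by germ cells, lay at 34.2 to 181 TPM. Every other gene of the list stayed at or below 1.40 TPM in all libraries. The part of this list in the results on stage was not tested.

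With genotype in the model, 4 of the 9 genes rose with the stage index and none fell, beside 12.6% of tested genes called higher and 24.4% called in either direction. The slope is a log2 change per unit of the index. *Zfp541* had a slope of 0.95 (SE 0.07, adjusted p = 1.75e-05, edgeR), a 1.94-fold rise per unit. *Meioc* had a slope of 0.59 (SE 0.05, adjusted p = 4.37e-05), a 1.51-fold rise per unit. *Ddx4* and *Rbm46* rose by 0.15 (adjusted p = 0.00336) and 0.14 (adjusted p = 0.00866), about 1.11-fold per unit. The identity gene *Ddx4* and the complex partner *Rbm46* thus moved with stage in the same direction as *Meioc*, with a much smaller slope. *Ybx2* had a slope of 0.17 (adjusted p = 0.109), which passed under 4 of 24 alternatives, among them litter date as a term (adjusted p = 0.0499). *Dazl* and *Cpeb1* each had a slope of 0.05, with intervals of -0.01 to 0.12 and -0.03 to 0.12. These intervals lie below the slopes of *Meioc* and *Zfp541*. They overlap the intervals of *Ddx4* (0.09 to 0.21) and *Rbm46* (0.07 to 0.22). *Ythdc2* and *Mybl1* had slopes of 0.07 and 0.06, with intervals of -0.10 to 0.24 and -0.20 to 0.31.

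These calls rest on a few libraries. Without deficient replicate 3 and heterozygous replicate 1, the pair farthest in index, 0 of the 9 and 0 of all tested genes were called; the slopes were then 0.71 for *Zfp541* (adjusted p = 0.375), 0.39 for *Meioc* (adjusted p = 0.533), 0.14 for *Ddx4* (adjusted p = 0.757) and 0.20 for *Rbm46* (adjusted p = 0.663). Without heterozygous replicate 1 alone, *Zfp541* and *Meioc* kept their calls while *Ddx4* (adjusted p = 0.224) and *Rbm46* (adjusted p = 0.0813) did not. Without deficient replicate 3 alone, *Rbm46* did not pass (adjusted p = 0.0608).

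**Figure D3:**
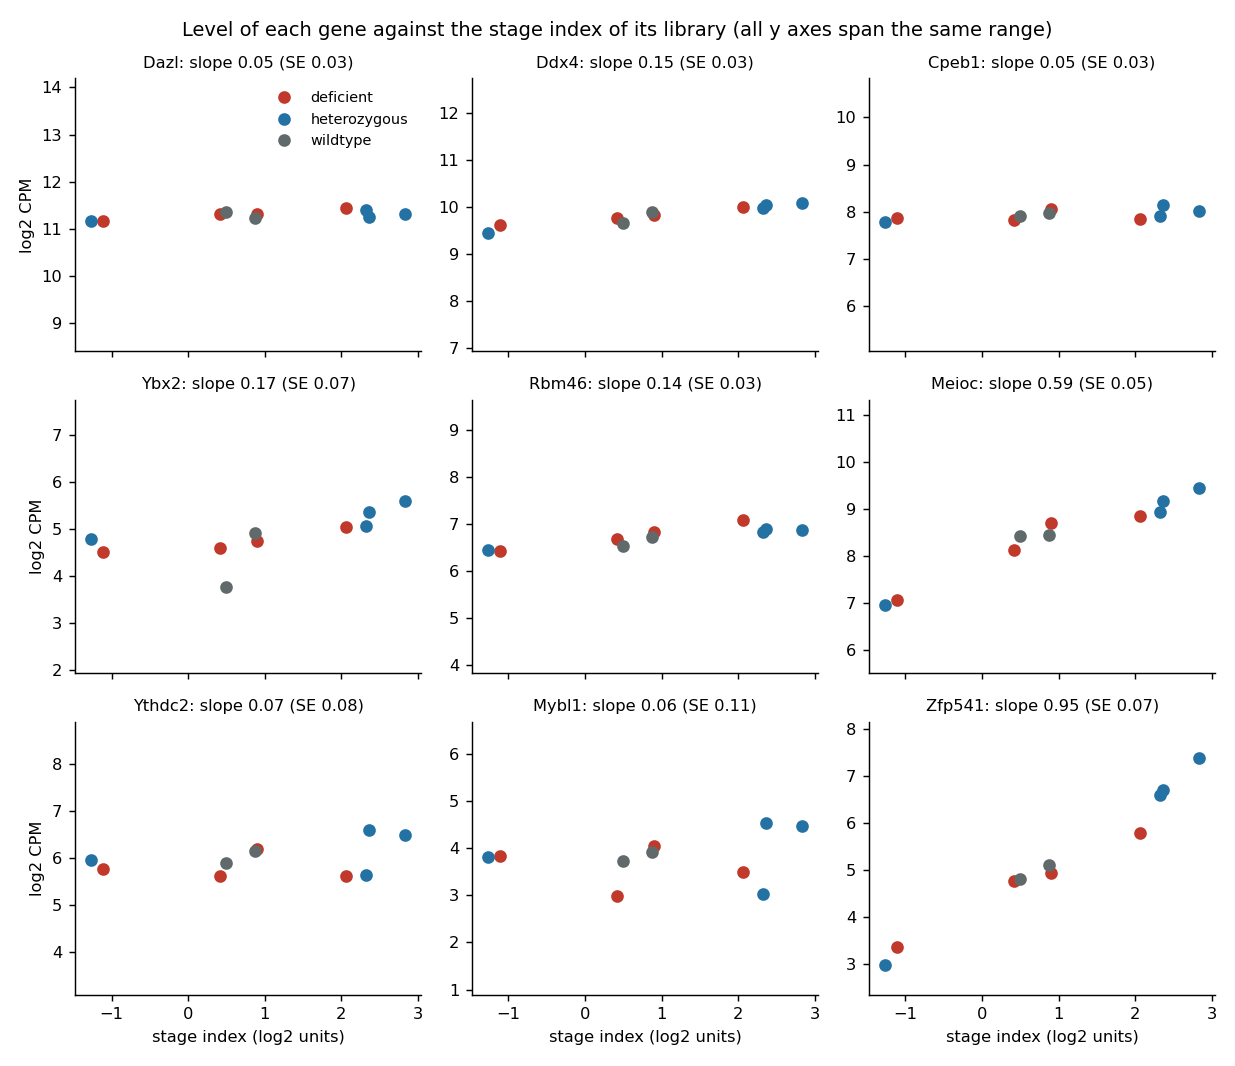
Log2 CPM of each gene against the stage index of its library, 1 point per library, coloured by genotype, with the y axes spanning the same number of log2 units. *Zfp541* and *Meioc* climb steadily from the low-index pair on the left to the 3 heterozygous libraries on the right, *Dazl* and *Cpeb1* stay nearly level, and *Ythdc2* and *Mybl1* scatter.

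Within each litter date the order of the libraries by *Zfp541*, *Meioc* and *Ddx4* was the same as their order by index. On 29 January, with 4 libraries, the library of highest index exceeded that of lowest index by 1.89 log2 units for *Zfp541*, 0.75 for *Meioc* and 0.38 for *Ddx4*, over an index span of 1.87. On 7 March, with 4 libraries and a span of 4.11, the same differences were 4.41, 2.50 and 0.64. On 1 March, with 2 libraries and a span of 1.99, they were 1.75, 1.38 and 0.28. The order by *Rbm46* was the same as that by index on 7 March and 1 March but not on 29 January. *Dazl* differed by -0.11, 0.15 and 0.06 on these dates. With litter date as a term the slopes were 0.99 for *Zfp541*, 0.57 for *Meioc*, 0.16 for *Ddx4* and 0.14 for *Rbm46*, and all of these passed.

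Whether the slope depended on genotype was tested as the slope in deficient libraries minus that in fertile libraries. Of the 9 genes 0 were called, beside 0% of tested genes. *Zfp541* had a difference of -0.29 (interval -0.48 to -0.09, unadjusted p = 0.00796, adjusted p = 1, edgeR). The TPM ratio of *Zfp541* to *Meioc* was 0.0750, 0.126, 0.0874 and 0.105 (deficient), 0.0673, 0.234, 0.197 and 0.184 (heterozygous) and 0.0815 and 0.104 (wildtype). The 3 heterozygous libraries of highest index exceeded all others in this ratio, and deficient replicate 2, with an index of 2.06, was the next highest. An unadjusted p under 0.05 for this difference was reached by 1 of the 9 genes and by 1.93% of tested genes.

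The libraries also differed in *Gm23935*, and *Ythdc2* and *Mybl1* are described beside it. *Gm23935* is a short gene annotated as a miRNA in GENCODE M21 that was abundant in most libraries. It was included here as a check of ribosomal RNA-like reads, not as a regulator of these genes. Its CPM was 4309, 454, 4146 and 141 (deficient), 4756, 4561, 87.4 and 4503 (heterozygous) and 5068 and 4505 (wildtype). Deficient replicates 2 and 4 and heterozygous replicate 3 were low, and these were also the lowest 3 libraries for both *Ythdc2* and *Mybl1*. The likeness was seen before the model was chosen, so the slopes on *Gm23935* are a description with no test. In a model with genotype and stage index, the fitted log2 change per doubling of *Gm23935* was 0.23 for *Mybl1* and 0.13 for *Ythdc2* (SE 0.03 each), and it ran from 0.173 to 0.249 and from 0.0899 to 0.166 over the alternatives. *Dazl* had a slope of -0.02 and *Ddx4* and *Zfp541* of 0.01 each. Slopes of similar size were not particular to *Ythdc2* and *Mybl1*. Among other germline RNA-binding and RNA-decay genes, those ranked first were *Lin28a* (0.27), *Cnot1* (0.22) and *Ybx3* (-0.34). Among meiotic commitment partners and meiotic transcription factors, they were *Tcfl5* (-0.40) and *Mga* (0.25). The median slope over all tested genes was -0.0038. How many tested genes share these lowest 3 libraries was not counted.

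With *Gm23935* in the model as well, the stage slopes of *Ythdc2* and *Mybl1* were 0.13 and 0.16. These slopes too are a description with no test, since the likeness to *Gm23935* was seen first. Without the 3 libraries low in *Gm23935*, 7 of the 9 genes rose with the stage index, beside 17.4% of tested genes called higher and 33.8% called in either direction. The ones not called over all 10 libraries were *Ythdc2* with 0.17, *Mybl1* with 0.17 and *Cpeb1* with 0.08. The 3 libraries left out were also the lowest 3 for *Ythdc2* and *Mybl1*, at index values of 2.06, 0.42 and 2.33. Leaving out low values at a high index raises a slope by selection, so the calls of *Ythdc2* and *Mybl1* there are no test. *Dazl* and *Ybx2* were the pair that did not pass there. What sets *Gm23935* apart in those 3 libraries was not tested.

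**Figure D4:**
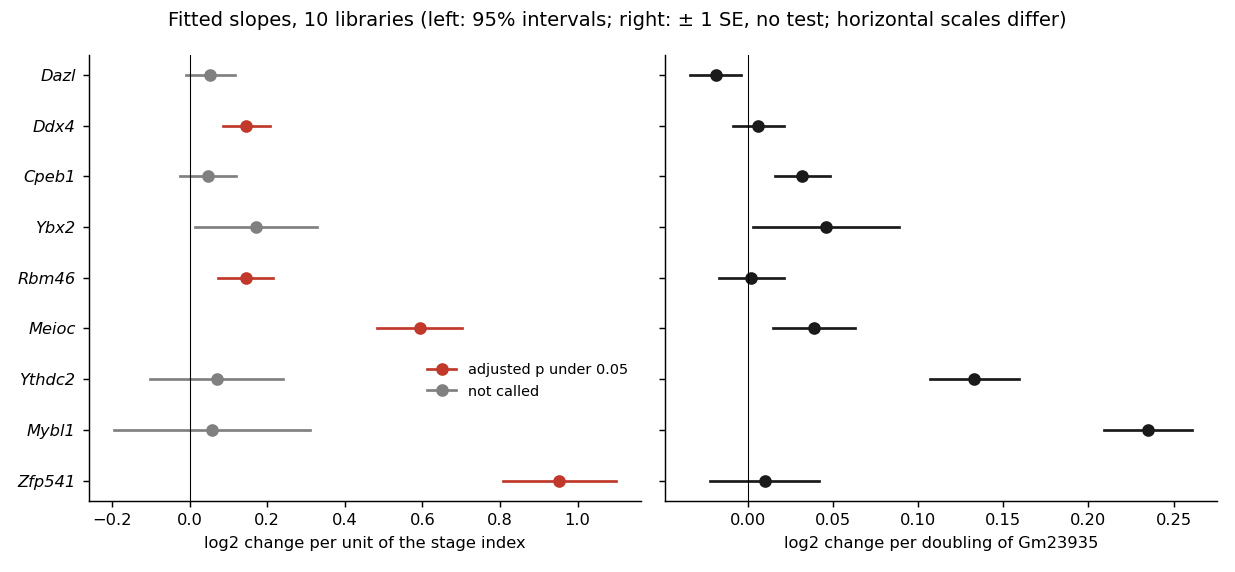
Fitted slopes for the 9 genes, per unit of the stage index on the left (95% intervals, with red for an adjusted p under 0.05) and per doubling of *Gm23935* on the right (bars of 1 SE to either side, no test). The horizontal scales differ. *Zfp541* (0.95) and *Meioc* (0.59) stand far to the right on the left panel, and *Mybl1* (0.23) and *Ythdc2* (0.13) on the right panel.

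**Figure D5:**
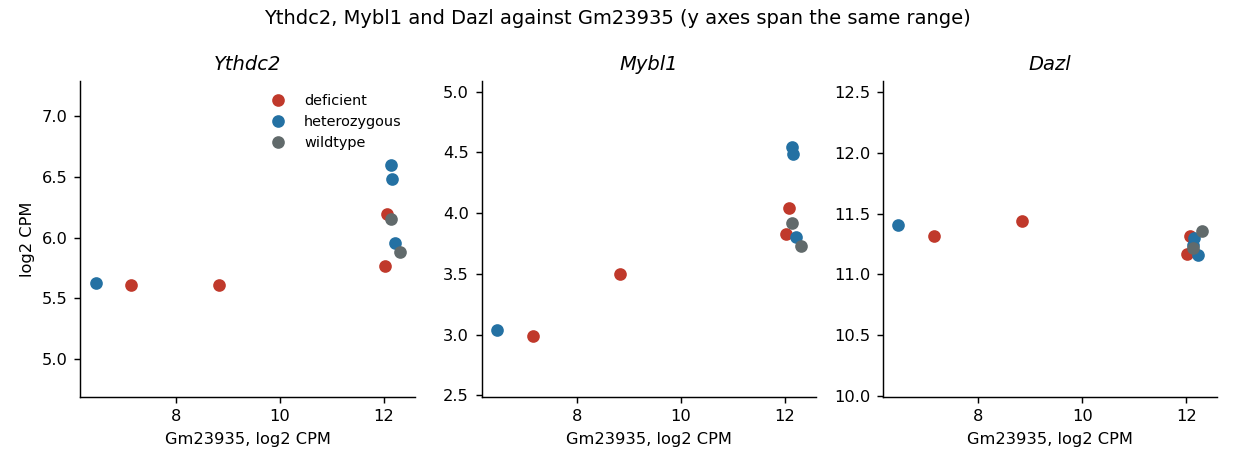
Log2 CPM of *Ythdc2*, *Mybl1* and *Dazl* against log2 CPM of *Gm23935*, 1 point per library, with y axes spanning the same number of log2 units. The 3 libraries on the left, with 454, 141 and 87.4 CPM of *Gm23935*, are the lowest for *Ythdc2* and *Mybl1* but not for *Dazl*.

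The wider families were read in the same way. Of 37 tested genes among 39 other germline RNA-binding and RNA-decay genes, 7 rose and 3 fell with the stage index, beside 24.4% of all tested genes called in either direction and 12.6% called higher, and the median slope was -0.02 against 0.0006 over all tested genes. *Adad1*, which encodes a germ cell RNA-binding protein, had a slope of 0.66, and *Boll*, the *Dazl* paralog, a slope of 0.52 (adjusted p = 1.38e-05 and 2.73e-05, edgeR). *Ddx25*, a germ cell helicase, rose by 0.43 and *Tdrd7*, a germ granule gene, by 0.24 per unit. On the falling side were *Dnd1* at -0.39 and *Nanos3* at -0.31, which protect early germ cells, and *Ybx1*, a widely expressed relative of *Ybx2*, at -0.25. None of the 37 was called in any genotype comparison.

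Of 25 tested genes among 27 meiotic commitment partners and meiotic transcription factors, 7 rose and 4 fell with the index, beside the same 24.4% and 12.6% of all tested genes, with a median slope of 0.06. *Taf7l*, a TFIID subunit paralog, and *Figla*, an oocyte transcription factor, rose by 1.04 and 1.01 per unit. *Stra8*, the retinoic acid target that starts the meiotic programme, rose by 0.53 and its partner *Meiosin*, listed as *Gm4969*, by 0.75 (adjusted p = 6.52e-05 and 0.000498, edgeR). *Stra8* CPM was 650, 991, 237 and 606 (deficient), 239, 939, 822 and 730 (heterozygous) and 588 and 609 (wildtype). Its lowest libraries were the same pair as for *Meioc*, *Rbm46*, *Zfp541* and *Ddx4*, and also for the even gene *Dazl*. *Sohlh1* rose by 0.76 at a mean of 1.13 CPM. The MYB relatives of *Mybl1* fell, *Myb* by 0.48 and *Mybl2* by 0.25 per unit, and the repressor *E2f6* fell by 0.23. *Kctd19*, the partner of *Zfp541*, had too few reads to be tested. In the genotype comparisons *Taf4b* itself was the 1 gene of this list that was called. It was called against heterozygous libraries and against the fertile mean, but not against wildtype libraries. All these slopes share the 10 libraries and the same low-index pair, without which no gene was called.

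The genes most like each member across the 10 libraries were sought among 10232 candidates with a mean of at least 5 CPM, by Pearson's r of log2 CPM, as a description with no test. *Zfp541* was closest to *Msh4* (r = 0.996) and *Tex11* (r = 0.994), both of which are in the recombination list of the index. *Meioc* was closest to *Slc16a7* (r = 0.990) and *Ntf5* (r = 0.989). *Mybl1* was closest to *Ubqln2* (r = 0.991) and *Rprd2* (r = 0.989), and *Ythdc2* to *Rap1gds1* (r = 0.968) and *Cacna2d2* (r = 0.965). *Ddx4* was closest to *Tchh* (r = 0.980) and *Golga1* (r = 0.976), and *Rbm46* to *Lmo4* (r = 0.962) and *Tcta* (r = 0.958). The even genes had *Ctsd* (r = 0.963) and *Nt5c2* (r = 0.962) for *Dazl* and *Jcad* (r = 0.946) and *Osbpl8* (r = 0.943) for *Cpeb1*, and *Ybx2* had *Map3k10* (r = 0.961) and *Zdbf2* (r = 0.959). No gene was shared between any of these pairs. The values share libraries, depth and the low-index pair, and the highest of many r over 10 points is high by selection.

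On GRCm38 *Dazl* is at chr17:50279395-50293636 and *Ddx4* at chr13:112598333-112652475, both on the minus strand. *Ybx2* is at chr11:69935796-69941605 and *Meioc* at chr11:102663716-102682237, both on the plus strand. *Cpeb1* is at chr7:81347026-81455465 on the minus strand and *Zfp541* at chr7:16061814-16096334 on the plus strand. *Rbm46* is at chr3:82837228-82876483 and *Mybl1* at chr1:9667415-9700209, both on the minus strand, and *Ythdc2* is at chr18:44827746-44889724 on the plus strand. By GENCODE M21, *Cpeb1* alone overlaps another gene, the processed pseudogene *Rpl7a-ps9* on the opposite strand, whose reads could not be told apart from those of *Cpeb1* if counting ignored strand.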

How the data were processed

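Bulk RNA-seq gene tables of 10 libraries (4 Taf4b-deficient, 4 Taf4b-heterozygous, 2 Taf4b-wildtype) were used. Per the submitters' processing notes, the authors trimmed reads with Trim Galore 0.5.0, checked them with FastQC 0.11.5, mapped them to GRCm38 with HISAT2 2.1.0 and used SAMtools 1.9. Gene counts deposited by the authors were made with featureCounts of Subread 1.6.2, and TPM by the authors with StringTie 1.3.3b, per those notes. Strand setting, annotation release, DESeq2 version and contrast: not given in the sources used here. In their DESeq2 table the authors give mean normalized counts (a signal), log2 fold changes, a test score and p-values, per the file headers.

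The 9 genes, the gene lists and the stage index were chosen with earlier results of these data known. Of 55536 genes, 20317 passed edgeR's filterByExpr; totals of 28949924 to 44166320 reads set the precision. Counts were scaled by TMM and fitted with the quasi-likelihood test of edgeR 4.0.16 in R 4.3.3 over all 10 libraries with 3 genotype groups, and for slopes with the stage index or log2 CPM of Gm23935 added. A call needed an adjusted p (Benjamini-Hochberg, over all tested genes) under 0.05. CPM uses TMM-scaled totals, log2 CPM a prior count of 2, and intervals cover 95%. All 45 library pairs differed beyond counting noise (chi-square per degree of freedom at least 9.61). Named genes were the 9 genes, Taf4b, Stra8 and Gm23935, the closest 2 genes by r for each, and, from each list, up to 4 of smallest p; Dnd1, Nanos3, Ybx1, Myb, Meiosin, Mybl2, E2f6, Kctd19, Pecam1, Pou5f1 and Kit were added after their values were seen.

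Alternatives were DESeq2 1.42.0, other scalings, no filter, TPM with limma 3.58.1 at pseudocounts of 0.1 and 1, litter date, replicate number as a block, each index list alone, and leaving out libraries. The fits with Gm23935 and the slope difference between genotypes were chosen after seeing the data. The scripts were tested on simulated data. RefSeq promoter letters are from GRCm38.p6.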

Additional observations from a re-analysis of the deposited data

Results flagged for a closer look

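*Rbm46* in heterozygous replicate 1 was at 87.2 CPM, while the other 3 heterozygous libraries lay between 115 and 119 CPM. Its gap to the nearest of them was 0.875 of the group's range, above Dixon's 95% critical value for 4 samples. This was 1 of 18 groups of 4 libraries examined over the 9 genes, and chance flags about 1 in 20 groups. The same library had the lowest stage index of the heterozygous group, and the part of stage in this value was not tested.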

How the results depend on the processing

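Of the 9 genes, 0 were called in each genotype comparison under every alternative run, except *Zfp541* in deficient against heterozygous libraries without heterozygous replicate 1, so leaving out libraries gave 0 to 1 there. The counts over all genes moved more. Against heterozygous libraries, 3 genes were called in the fit reported, 6 with DESeq2 size factors, with upper quartile scaling and with the stage index as a covariate, 14 with no filter, 224 with DESeq2, 0 with litter date, 13 and 45 on TPM at pseudocounts of 0.1 and 1, 97 without the 3 libraries low in *Gm23935*, 17 with *Gm23935* as a covariate, and 0 to 519 when a library was left out. Against wildtype, 0 genes became 1 with no filter, with DESeq2 and with the stage index, and 0 to 1 when a library was left out. Against the fertile mean, 1 gene became 8 with DESeq2 and 0 with litter date, on TPM, without the 3 libraries and with *Gm23935*, and 0 to 1 when a library was left out. Between heterozygous and wildtype libraries, 1 gene became 268 with no filter, 488 with DESeq2, 186 without the 3 libraries, 3 with the stage index, and 0 with litter date, on TPM, with *Gm23935* and whenever a library was left out (0 to 0).

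Over the 9 genes and all alternatives, 15, 22, 14 and 10 of 189 values changed sign against heterozygous, against wildtype, against the fertile mean and between heterozygous and wildtype libraries, and none of the 9 genes was called in the reported fit of these comparisons. Among the values printed above, against heterozygous libraries *Rbm46* was -0.035 with litter date, -0.095 on TPM (both pseudocounts), -0.10 without the 3 libraries, -0.015 with *Gm23935*, and -0.12 to 0.13 when a library was left out; *Dazl* was -0.15 on TPM at either pseudocount and -0.015 to 0.12 when a library was left out; *Cpeb1* was -0.12 to 0.033 when a library was left out; and with the stage index *Ddx4* was 0.057 and *Meioc* 0.16. Against wildtype *Ythdc2* was 0.027 with *Gm23935* and *Ybx2* -0.17 to 0.96, *Meioc* -0.324 to 0.158 and *Zfp541* -0.464 to 0.265 when a library was left out. Against the fertile mean *Meioc* was 0.000675 with the stage index. The cause was not tested.

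The stage slope called 4 of the 9 and 5006 genes in all; 7 of the 9 were called without the 3 libraries, 0 of the 9 and 0 genes without the pair farthest in index (8 libraries remain), and 2 to 5 of the 9 and 625 to 5730 genes when a library was left out. *Cpeb1* was -0.028 and *Ythdc2* -0.00035 without that pair, and *Mybl1* was -0.011 to 0.11 when a library was left out. The calls of *Ythdc2* and *Mybl1* without the 3 libraries are no test, since those libraries were also the lowest for both genes. The slope difference between genotypes called 0 genes, 2 with no filter and 5 without the 3 libraries. The *Gm23935* slopes have no test and were not run without the 3 libraries.

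The labels do not say that a replicate number marks a litter or animal across groups. Deviations of same-numbered libraries correlated at -0.541 to 0.492 over 8 pairs (median 0.163), 3 of them at or below 0.1. Those of differently numbered libraries correlated at -0.739 to 0.765 over 24 pairs (median -0.0715), 15 of them at or below 0.1. With the replicate number as a block, the stage slope called 2 of the 9 (*Zfp541* 0.94 and *Meioc* 0.64) and 1325 genes, *Mybl1* was -0.00105, *Rbm46* was -0.0038 against heterozygous libraries, and 0 genes were called against heterozygous, against the fertile mean, and between heterozygous and wildtype libraries. With 4, 4 and 2 libraries, the smallest read counts of the 9 genes in single libraries were 267 for *Zfp541* and 297 for *Mybl1*.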
